A study of Mus musculus with 27 samples.

Results

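Transcripts of 10 genes of the insulin and IGF axis, chosen by symbol from the 36333 genes of the deposited table, were followed in liver, omental adipose tissue (adipose below) and skeletal muscle (muscle) of MlxKO mice labelled as aged 5 or 20 months. All 10 were present in the table: the ligands Igf1 and Igf2, the receptors Igf1r and Insr, the receptor substrates Irs1 and Irs2, and the secreted binding proteins Igfbp1, Igfbp2, Igfbp3 and Igfbp5. Each tissue was represented by 4 samples at 5 months and 5 samples at 20 months, 27 in all. The 4 younger mice, here called A to D in the order of the mouse numbers in the labels (sample codes X5L4299, X5L5001, X5L5238 and X5L5239 for liver), each gave all 3 tissues. Older samples are given by the number that ends their code (X18L16 is liver sample 16). Every sample, at either age, came from the same model, a B6.129 line carrying Gt(ROSA)26Sortm1(cre/ERT2)Tyj/J and bred to Mlx Flox/Flox. CreER in it is driven by the ubiquitously active ROSA26 promoter, and 5 daily injections of tamoxifen at 75 mg per kg in corn oil, begun at weaning once mice weighed at least 15 g, were given to delete Mlx throughout the body. By the study's own PCR on the tissues, loss of the Mlx transcript was incomplete in skeletal muscle and more complete in liver and adipose. The comparison of ages is therefore one between knockout animals that all received tamoxifen, and no wild-type sample was analysed here, so that a change with age in these mice cannot be attributed to the loss of Mlx.

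In this axis, insulin from the pancreas and the insulin-like growth factors bind a pair of related receptor tyrosine kinases, the insulin receptor (Insr) and the IGF1 receptor (Igf1r). The activated receptors phosphorylate the docking proteins Irs1 and Irs2, which recruit PI3-kinase and through it Akt. Akt then stimulates glucose uptake and mTOR-dependent protein synthesis and keeps FoxO transcription factors out of the nucleus. Liver is the main source of circulating Igf1, which growth hormone induces, while the binding proteins hold most IGF in the blood and regulate its access to receptors. Igfbp1 and Irs2 are textbook hepatic genes that FoxO induces when insulin is low, and Mlx is the obligate partner of the glucose-sensing factors MondoA and ChREBP, which bind E-box-like sequences.

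In the RefSeq annotation of GRCm38.p6, whose gene spans include introns and untranslated exons, Igf1 lies at chr10:87858265-87937047 on the plus strand and Igf2 at chr7:142650768-142666816 on the minus strand. Igf1r is at chr7:67952257-68233668 (plus), Insr at chr8:3150922-3279649 (minus), Irs1 at chr1:82233105-82291439 (minus) and Irs2 at chr8:10984681-11008929 (minus). The binding protein genes form 2 neighbouring pairs, Igfbp1 at chr11:7197787-7202546 (plus) with Igfbp3 at chr11:7206086-7215498 (minus), and Igfbp2 at chr1:72824480-72852474 (plus) with Igfbp5 at chr1:72858065-72874865 (minus). Igf1 overlaps Igf1os, Igf2 overlaps Igf2os and Mir483, Igf1r overlaps Gm51488 and Gm51487, and Irs2 overlaps 9530052E02Rik. Whether reads were counted by strand was not given in the sources used here, so that reads of these genes could have been shared with the overlapping ones. The antisense transcripts listed were low, at most 0.752 for Igf1os and 0.399 for Igf2os in any sample.

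Between 14384695 and 25673919 reads were assigned to genes per sample, so that 3 reads corresponded to a value of 0.0703 to 0.242 in the units used below, which are the deposited CPM carrying a scaling factor for each sample (termed normalised values). Mlx itself, the targeted gene, lay between 18.8 and 32.4 in liver, between 8.19 and 13.9 in adipose and between 7.04 and 11.6 in muscle. A gene-level count also covers exons outside the deleted part and cannot by itself check the deletion. The tissue labels matched their markers: the summed value of 6 hepatocyte genes was 44187 to 166733 in liver and at most 352 elsewhere, that of 6 muscle fibre genes 130529 to 167480.3 in muscle and at most 868 elsewhere, and that of 6 adipocyte genes 4082 to 7691 in adipose and at most 223 elsewhere. One of the younger mice, B, held the highest value among the 4 young samples in 16 of the 30 combinations of member and tissue, against 25.4% to 32.0% of all genes in a tissue, and Igf1r and Irs1 were highest in this mouse in all 3 tissues. Calls of a change with age in a member that were lost without it are therefore named below. For the other genes of the pathway, calls were not examined with this mouse or any other sample left out. Where leaving out other samples also ended a call, the adjusted p is given as a range over all of them.

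The question addressed by the ageing comparison was whether members differed between 5 and 20 months within a tissue, as tested by limma on log2(value + 1) across all genes with adjustment by Benjamini and Hochberg at 0.05. In liver, 3 of the 9 members tested passed (19.8% of the 12654 genes tested did), with Insr and Irs2 lower and Igfbp5 higher at 20 months. In adipose, 3 of 10 passed (19.1% of 14005 genes), namely Igf2, Igf1r and Insr, all lower. In muscle, 2 of 8 passed (19.3% of 12720 genes), Igf1 and Igf1r, again both lower. By direction, 9.79% of all genes tested were called lower and 10% higher in liver, 9.35% and 9.75% in adipose and 10.1% and 9.13% in muscle. With so few members these shares stand close to the background. Without mouse B the members called went from 3 to 1 in liver, from 3 to 0 in adipose and stayed at 2 in muscle, while all genes called went from 2508 to 980, from 2674 to 596 and from 2451 to 1518. The median log2 change of the members tested was -0.27 in liver, -0.95 in adipose and -0.39 in muscle, beside medians of 0.00, 0.01 and 0.02 over all genes tested in the same tissues. Igf2 in liver and Igfbp1 and Igfbp2 in muscle did not reach a value of 1 in 4 samples and were not tested. Because tissues were sequenced in bulk, fewer cells of a type and less RNA per cell cannot be told apart in any of these comparisons.

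**Figure D1:**
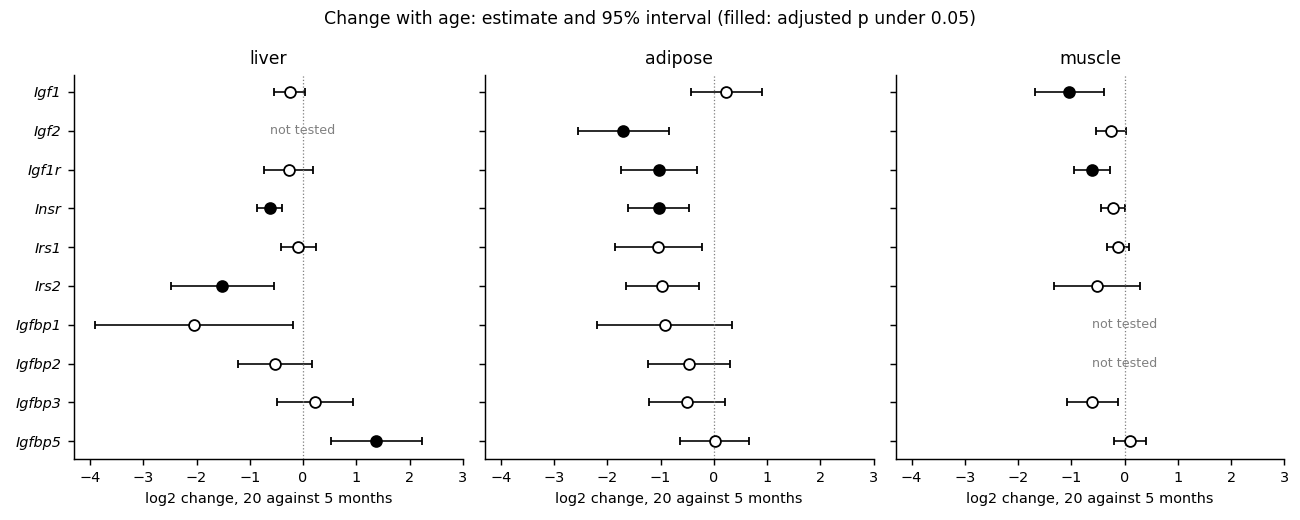
Estimated log2 change of each member between 20 and 5 months (x axis, negative values are lower at 20 months) in liver, adipose and muscle, with the 95% interval from limma as a bar and a filled symbol where the adjusted p was under 0.05. Igf2, Igf1r and Insr lie left of 0 in adipose, Igf1 and Igf1r in muscle, Insr and Irs2 in liver, and Igfbp5 in liver is the 1 filled symbol to the right.

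Igf1, the growth-hormone-induced ligand, was highest in liver, where its normalised value was 413, 380.1, 554 and 458 at 5 months and 402, 364, 402, 382 and 327 at 20 months. The age groups overlapped, and the change of -0.25 on the log2 scale did not pass (95% interval -0.54 to 0.031, limma adjusted p = 0.176). In muscle the values were far lower, 9.91, 7.42, 13.3 and 23.3 at 5 months and 8.35, 3.26, 5.21, 7.35 and 4.703 at 20 months, and the group mean went from 13.5 ± 6.96 (SD, n = 4) to 5.77 ± 2.06 (SD, n = 5). All 5 older muscles lay below the mean of the younger ones although the ranges overlapped at 7.42 to 8.35, and Igf1 fell (log2 change -1.04, 95% interval -1.69 to -0.38, limma adjusted p = 0.0338). In adipose Igf1 was 79.6, 41.1, 98.3 and 109 at 5 months and 60.9, 116, 119.5, 98.6 and 74.6 at 20 months, with no clear order by age (log2 change 0.24, 95% interval -0.44 to 0.91, limma adjusted p = 0.568). The call in muscle was lost when 5-month mouse D or 20-month samples 57, 58 or 60 were left out (adjusted p 0.0691 to 0.0783) and without the filter (0.0789). The highest young value was that of mouse D.

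The age change of Igf1 differed between adipose and muscle by 1.27 (95% interval 0.46 to 2.08, limma adjusted p = 0.0315), which is the difference of log2 changes, adipose minus muscle. At 20 months the mean hepatic level was 3.996 times that in adipose and 65.03 times that in muscle. The call was lost without adipose samples 37, 38 or 39, adipose mouse B, muscle samples 57, 58 or 60, or muscle mouse D (adjusted p just over 0.05 to 0.0882), and without the filter (0.0536).

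Igf2, the imprinted growth factor that is abundant before birth, showed the largest called decrease of any member in the 3 tissues. In adipose its values were 23.1, 21.8, 19.2 and 10.2 at 5 months and 9.67, 1.91, 3.06, 6.14 and 6.18 at 20 months. The highest older sample (36, at 9.67) lay just under the lowest younger one (mouse D, at 10.2), so that the groups did not overlap, and the mean went from 18.6 ± 5.83 (SD, n = 4) to 5.39 ± 3.04 (SD, n = 5), 3.45-fold lower at 20 months (log2 change -1.70, 95% interval -2.55 to -0.85, limma adjusted p = 0.0234). In muscle Igf2 stayed within a narrow band, 17.6, 19.7, 13.5 and 14.8 at 5 months and 11.5, 13.4, 13.3, 14.9 and 14.3 at 20 months (log2 change -0.26, 95% interval -0.53 to 0.023, limma adjusted p = 0.166). In liver Igf2 was near the floor, between 0.424 and 0.852 in the 9 samples, or 7 to 17 reads.

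The decrease of Igf2 in adipose differed from its change in muscle by -1.44 (95% interval -2.19 to -0.69, limma adjusted p = 0.0103) and from that in liver by 1.74 (95% interval 0.99 to 2.49, limma adjusted p = 0.00263), the latter given as liver minus adipose. Igf2 in liver, at 0.424 to 0.852, was too low to be tested for age there and had little room to fall. The difference from liver therefore largely restates the adipose decrease. Both differences passed with each of the 27 samples left out in turn and under all 11 alternative settings. The call within adipose was lost without 5-month mouse A or B or 20-month sample 38 (adjusted p 0.0501 to 0.0695). In the same adipose samples the summed value of 5 endothelial genes was 685 to 1427 at 5 months and 476 to 874 at 20 months (2 of 5 genes fell), that of 6 mesothelial genes 70.2 to 139 and 34.3 to 75.9 (4 of 6 fell), and that of 6 macrophage genes 421 to 777 and 613 to 1883 (2 of 6 rose). The 6 adipocyte markers summed to 5885 to 7691 and 4082 to 7037 (2 of 6 fell), but they did not move together. By group mean Cfd (2943 to 1076), Cidec (2651 to 2087) and Pparg (102 to 66.3) were lower at 20 months. Plin1 (237 to 594), Lep (236 to 796) and Adipoq (777 to 1022) were higher, none of them past the threshold. No marker of these lists was at 0 in all adipose samples of an age, and the part of these cell types in the adipose results was not tested.

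**Figure D2:**
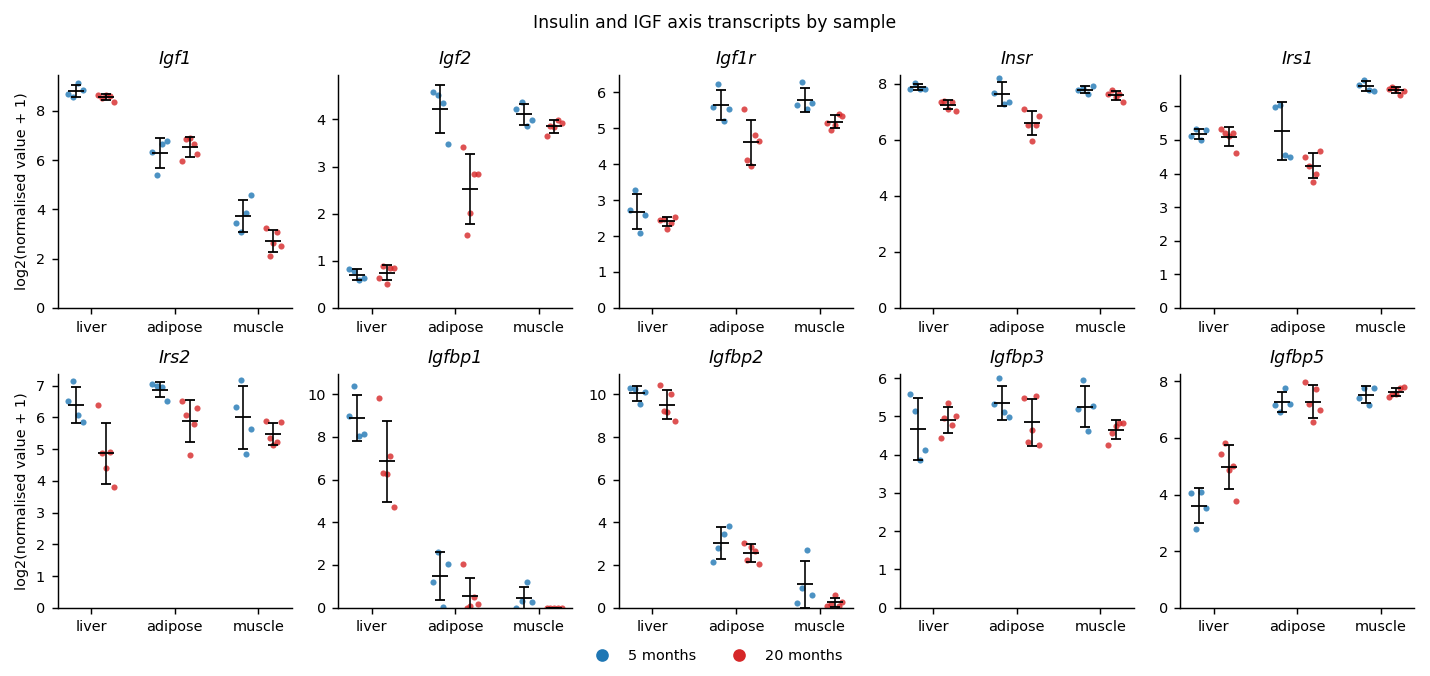
Normalised values of the 10 members on the log2(value + 1) scale (y axis, starting at 0) in every sample of liver, adipose and muscle at 5 months (blue) and 20 months (red), with the group mean and SD as black bars, which are the mean and SD of the log2 values. Igf2 in adipose separates by age, and Igfbp1 and Igfbp2 are high in liver alone.

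The ratio of Igf2 to Igf1, each per kilobase of exon so that the genes can be compared, set the tissues apart. It was 0.00170 to 0.00361 in young and 0.00199 to 0.00462 in older livers, where Igf1 dominated. In muscle the ratio was above 1 in all 9 samples, 1.198 to 5.004 at 5 months and 2.59 to 7.78 at 20 months. In adipose it was 0.176 to 1.002 and then 0.0310 to 0.299, with overlapping ranges. These ratios are a description and were not tested.

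Of the receptors, Insr was the more abundant per kilobase in each of the 27 samples. In liver its values were 225, 259, 225 and 226 at 5 months and 162, 167, 137, 162 and 129.6 at 20 months, and the older group lay wholly below the younger one. Hepatic Insr fell (log2 change -0.63, 95% interval -0.86 to -0.39, limma adjusted p = 0.00866), from 234 ± 16.6 (SD, n = 4) to 152 ± 16.99 (SD, n = 5). This call held with each of the 9 livers left out and under all 11 alternative settings (adjusted p at most 0.0281 in the latter). Mouse B gave the highest young value, and without it the change was -0.58. In the same livers the summed value of 6 hepatocyte genes was 106772 to 166733 at 5 months and 44187 to 100279.6 at 20 months (2 of 6 fell), that of 6 macrophage genes 176 to 276 and 184 to 489 (2 of 6 rose), and that of 4 B cell genes 1.24 to 6.48 and 6.63 to 14.03 (4 of 4 rose). The hepatocyte genes did not move together. By group mean Alb (96938 to 55182), Cps1 (8119 to 1805) and Tat (3671 to 973) were lower at 20 months. Apoa1 (11482 to 11223), Apoa2 (7462 to 7617) and Ttr (5113 to 5236) changed little. No marker of these lists was at 0 in all livers of an age, and the part of these cells in the liver results was not tested.

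Adipose Insr was 203, 295, 156 and 160.0 at 5 months and 134, 90.7, 60.8, 91.5 and 115 at 20 months, again with no overlap, and was 2.07-fold lower at 20 months (log2 change -1.04, 95% interval -1.61 to -0.47, limma adjusted p = 0.0287). Without mouse A, mouse B or samples 37, 38 or 39 the adjusted p rose to 0.0505 to 0.0771. In muscle Insr was 219.9, 227, 195 and 241 at 5 months and 199, 215, 182, 199 and 159.8 at 20 months, where the groups overlapped and the change did not pass (log2 change -0.21, 95% interval -0.44 to 0.014, limma adjusted p = 0.158). The adipose change differed from the muscle change (adipose minus muscle) by -0.83 (95% interval -1.34 to -0.31, limma adjusted p = 0.0278), a difference that did not pass without adipose sample 38, adipose mouse B or muscle mouse C (adjusted p 0.0503 to 0.0769), or without all 3 samples of mouse B (0.110). Between 5-month tissues Insr did not differ past the threshold for any pair (adjusted p 0.233, 0.707 and 0.443 for liver against adipose, liver against muscle and adipose against muscle) with the deposited scaling. With plain CPM the signs of all 3 differences turned (-0.93, -0.11 and 0.81), and young adipose Insr was then called higher than that in liver (adjusted p = 0.000218) and in muscle (0.000876), as it was with the scaling that leaves out the 20 most abundant genes (0.000818 and 0.010).

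Igf1r, the receptor through which both IGFs signal, was scarce in liver, 5.66, 8.73, 3.28 and 5.04 at 5 months and 4.48, 4.61, 3.61, 4.15 and 4.81 at 20 months (log2 change -0.27, 95% interval -0.73 to 0.19, limma adjusted p = 0.376). In muscle it was 49.5, 76.9, 45.2 and 51.01 at 5 months and 34.2, 29.98, 32.98, 41.2 and 39.8 at 20 months. Every older muscle lay below every younger one, and Igf1r fell from 55.6 ± 14.4 (SD, n = 4) to 35.6 ± 4.72 (SD, n = 5) (log2 change -0.61, 95% interval -0.94 to -0.27, limma adjusted p = 0.0212). The call was lost without muscle samples 57 or 58 (adjusted p 0.0506 to 0.0517) and in 1 fit of all 27 samples (0.113).

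In adipose Igf1r was 47.5, 74.4, 36 and 45.8 at 5 months and 45.2, 16.4, 14.5, 27.2 and 23.96 at 20 months. Sample 36 reached the young range while the other 4 older samples lay below it, and the mean fell 2.0-fold (log2 change -1.03, 95% interval -1.75 to -0.32, limma adjusted p = 0.0489). This was the least secure of the calls: it passed in 4 of 11 alternative settings, and leaving out any 1 of 5-month mice A, B and D or of 20-month samples 37, 38, 39 and 40 gave adjusted p 0.0588 to 0.128. The age change of Igf1r did not differ past the threshold between any pair of tissues (adjusted p 0.142 for liver against adipose, 0.559 for liver against muscle and 0.446 for adipose against muscle).

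Per kilobase, the ratio of Igf1r to Insr was 0.0119 to 0.0277 in young and 0.0210 to 0.0305 in older livers. It was higher in adipose, 0.190 to 0.235 and 0.149 to 0.275, and in muscle, 0.174 to 0.278 and 0.114 to 0.204. Within each tissue the age groups overlapped.

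**Figure D3:**
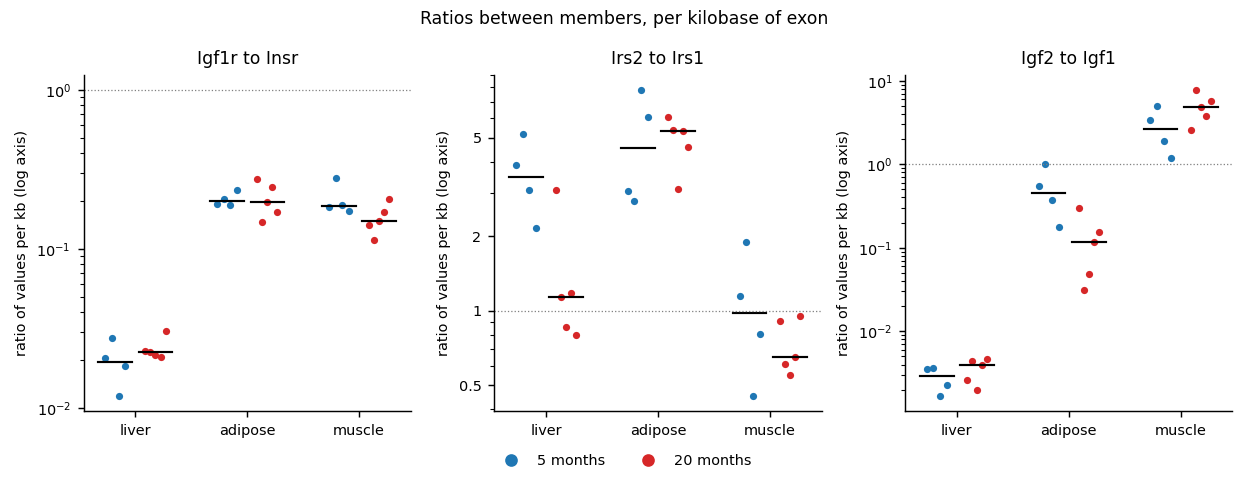
Ratios of Igf1r to Insr, Irs2 to Irs1 and Igf2 to Igf1 (y axis, log scale, each value per kilobase of exon) in every sample at 5 months (blue) and 20 months (red), with the group median as a bar and a dotted line at 1. The Igf1r to Insr ratio is at most 0.0305 in all livers, and the Igf2 to Igf1 ratio is above 1 in all muscles.

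Of the receptor substrates, Irs1 was highest in muscle, 99.04, 110.1, 89.4 and 87.6 at 5 months and 91.4, 93.7, 90.5, 80.1 and 86.7 at 20 months, and neither there (log2 change -0.12, 95% interval -0.32 to 0.082, limma adjusted p = 0.363) nor in liver, 33.8, 38.8, 30.9 and 38.5 at 5 months and 39.4, 36.1, 33.8, 35.6 and 23.7 at 20 months (log2 change -0.087, 95% interval -0.41 to 0.24, limma adjusted p = 0.699), did its change pass. In adipose the younger mice fell into a high pair (62.1 and 65.4 in mice A and B) and a low pair (22.7 and 21.5 in mice C and D), and the older samples were 21.6, 17.9, 12.6, 14.9 and 24.4. The low pair lay within the older range, and the change did not pass (log2 change -1.04, 95% interval -1.85 to -0.23, limma adjusted p = 0.0669). It did pass on recovered reads with edgeR (0.0484) and DESeq2 (0.00826). The difference of its age change between liver and adipose, 0.95 (95% interval 0.24 to 1.67, limma adjusted p = 0.0621), did not pass, but did with the mouse as a replicate block (adjusted p = 0.0499) and in 4 further settings.

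Irs2, a substrate gene whose transcript insulin represses in liver, ranged widely. In liver it was 90.6, 139.6, 66.1 and 57.5 at 5 months and 83.7, 28.3, 20.1, 29.02 and 13.03 at 20 months. Sample 16 stood within the young range while the other 4 older livers, at 13.03 to 29.02, were all under the lowest young value of 57.5, and Irs2 fell (log2 change -1.52, 95% interval -2.48 to -0.55, limma adjusted p = 0.0357), 2.54-fold in group means. Leaving out 5-month mouse A, B or C or 20-month samples 17, 18, 19 or 74 ended the call (adjusted p 0.0548 to 0.102), as did edgeR (0.0614) and DESeq2 (0.0598) on recovered reads and omission of the filter (0.0686). In adipose Irs2 was 131, 126, 123 and 90.5 at 5 months and 90.6, 66.8, 27.1, 54.9 and 77.4 at 20 months, where sample 36, at 90.6, and mouse D, at 90.5, were the point of contact between the groups (log2 change -0.97, 95% interval -1.66 to -0.29, limma adjusted p = 0.0520). This change passed with DESeq2 (0.0166), with a mean value of at least 5 as the filter (0.0494) and without sample 36 (0.0261) or mouse D (0.0443). In muscle it was 78.8, 145, 28.1 and 48.7 at 5 months and 57.6, 39.6, 34.4, 36.2 and 57.01 at 20 months, with mouse B the highest and mouse C the lowest of all 9 samples (log2 change -0.51, 95% interval -1.32 to 0.29, limma adjusted p = 0.329).

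Per kilobase, the ratio of Irs2 to Irs1 was 2.16 to 5.197 in young livers and 0.797 to 3.07 in older ones, where sample 16 held the highest value and the other 4 were at or under 1.18. In adipose the ratio was 2.78 to 7.82 and 3.12 to 6.07, and in muscle 0.455 to 1.91 and 0.550 to 0.951. Irs2 thus exceeded Irs1 in all 9 adipose samples, whereas either could be the higher in muscle.

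Igfbp1, a short-lived secreted inhibitor of IGF action that insulin represses in hepatocytes, ranged more widely over the livers than any other member. Its values in liver were 499.6, 1340.2, 265 and 283 at 5 months and 905, 77.2, 76.5, 137 and 25.3 at 20 months, a span from 25.3 in sample 74 to 1340.2 in mouse B. The group means were 597 ± 507 (SD, n = 4) and 244 ± 372 (SD, n = 5). Older livers other than sample 16 lay below every younger one, but the change as a whole did not pass (log2 change -2.05, 95% interval -3.91 to -0.19, limma adjusted p = 0.105), and without sample 16 it did (log2 change -2.79, adjusted p = 0.00602), as it did in 1 fit of all 27 samples (0.0328). The livers with the highest Igfbp1 (mouse B, sample 16 and mouse A) were also those with the highest Irs2, and the 4 livers with the lowest Igfbp1 (samples 74, 18, 17 and 19, in rising order) were in the same order for Irs2. Sample 74 also held the lowest hepatocyte marker sum (44187) and mouse B the highest (166733), most of which was Alb (26970 and 125324). Sample 74 was lowest for Apoa1 (8872), Apoa2 (4335) and Ttr (2501) as well, but mouse B held the lowest Apoa1 of the young livers (10565). The part of this in the order was not tested. The likeness of the 2 genes was noticed after the values were seen and is given as a description. Over all 27 samples, with the mean of each tissue and age taken off, Pearson's r between the 2 genes was 0.55, a value that shares libraries and scaling between the genes.

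**Figure D4:**
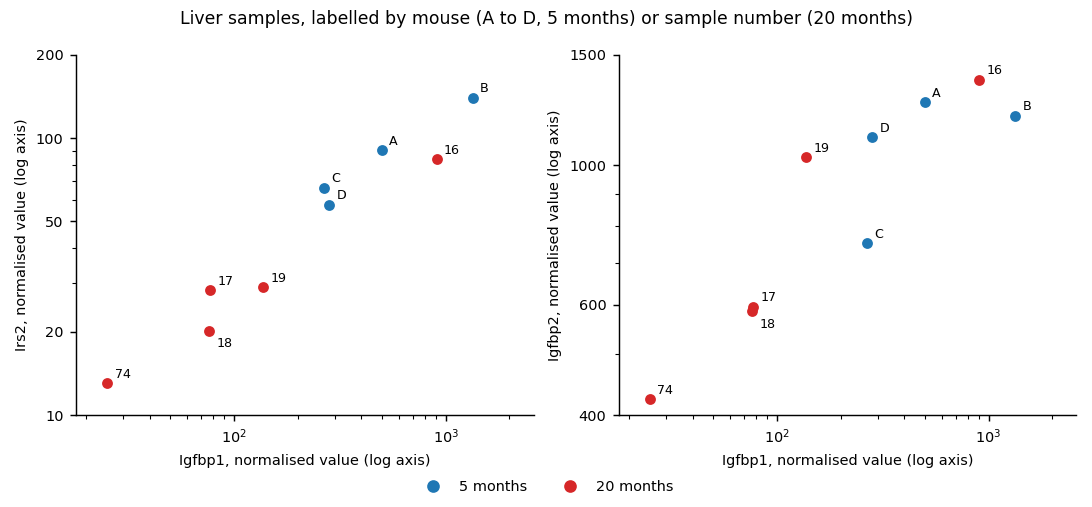
Normalised values of Irs2 (left) and Igfbp2 (right) against Igfbp1 in the 9 livers, both axes on log scales, with each point labelled by mouse (A to D) or sample number and coloured by age (blue 5 months, red 20 months). Sample 16 sits among the younger livers at 905 for Igfbp1 and 83.7 for Irs2, and sample 74 is lowest for all 3 genes.

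Because hepatic Irs2 and Igfbp1 ran in parallel, their promoters are shown with that of Irs1, the other substrate gene. The windows run from 250 bases before to 50 bases after the transcript start and were taken from RefSeq (build GRCm38.p6), at chr11:7197537-7197836 on the plus strand for Igfbp1 and at chr8:11008880-11009179 and chr1:82291390-82291689 on the minus strand for Irs2 and Irs1. Capitals mark an E box (CACGTG, its own reverse complement) or the core of the insulin response element (CAAAACA, or TGTTTTG on the other strand), searched on both strands.
Igfbp1: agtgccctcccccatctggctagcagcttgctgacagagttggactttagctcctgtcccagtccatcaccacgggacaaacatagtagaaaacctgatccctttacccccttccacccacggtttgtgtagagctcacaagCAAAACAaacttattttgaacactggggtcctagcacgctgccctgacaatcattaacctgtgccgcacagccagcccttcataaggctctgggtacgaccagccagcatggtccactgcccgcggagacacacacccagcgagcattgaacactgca
Irs2: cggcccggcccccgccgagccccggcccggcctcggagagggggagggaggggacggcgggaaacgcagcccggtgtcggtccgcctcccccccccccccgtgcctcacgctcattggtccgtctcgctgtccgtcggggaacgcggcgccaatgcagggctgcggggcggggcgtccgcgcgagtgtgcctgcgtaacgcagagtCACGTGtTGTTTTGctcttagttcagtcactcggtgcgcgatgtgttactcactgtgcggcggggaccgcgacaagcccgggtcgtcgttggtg
Irs1: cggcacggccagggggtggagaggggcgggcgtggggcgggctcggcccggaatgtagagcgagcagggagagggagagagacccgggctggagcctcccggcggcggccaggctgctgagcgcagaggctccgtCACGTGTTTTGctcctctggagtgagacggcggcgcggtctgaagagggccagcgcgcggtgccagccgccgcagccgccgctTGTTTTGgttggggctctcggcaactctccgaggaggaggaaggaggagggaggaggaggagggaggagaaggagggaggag

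The Igfbp1 window held CAAAACA from 108 to 102 bases before the start and no E box. In Irs2 an E box from 44 to 39 bases before the start was followed after 1 base by TGTTTTG from 37 to 31. In Irs1 an E box from 115 to 110 bases before the start overlapped TGTTTTG from 111 to 105, and another TGTTTTG stood from 32 to 26. Among 32851 promoter windows, 7.15% held CACGTG, 6.28% held CAAAACA in either orientation and 0.408% held both, while the FoxO core GTAAACA was in 3.65% of windows and in none of the 13 windows found for 9 of the 10 members. CACGTG was also in the window of Igfbp2. Insr had no window in the table used. A match describes letters in these windows and is not a binding site. Nor does the lack of a match show that a factor has no site there, which holds for FoxO and the letters searched.

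Igfbp2, a binding protein secreted by liver, was the most abundant member there per kilobase, at 739.9 ± 156 (SD) in 4 young and 548 ± 266 in 5 older livers. Its normalised values were 1261, 1199, 752 and 1109 at 5 months and 1368, 595, 585, 1029 and 425 at 20 months. The spread among older livers, from 425 in sample 74 to 1368 in sample 16, covered the whole young range, and the change did not pass (log2 change -0.54, 95% interval -1.23 to 0.16, limma adjusted p = 0.236). In adipose Igfbp2 was 3.35, 5.87, 9.82 and 13.04 at 5 months and 7.25, 3.698, 6.25, 5.37 and 3.11 at 20 months (log2 change -0.47, 95% interval -1.23 to 0.30, limma adjusted p = 0.316).

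Outside liver, Igfbp1 and Igfbp2 were low and partly moved with liver transcripts. In muscle Igfbp1 was 0, 0.242, 1.33 and 0.209 at 5 months, or 0 to 17 reads, and at 0 reads in all 5 older samples, while Igfbp2 was 0.154, 0.887, 5.48 and 0.488 and 0.0652, 0.133, 0.506, 0.0735 and 0.214. Muscle of mouse C was highest for both, at 1.33 and 5.48, and it also held the most albumin (Alb, 222, against 0 to 43.1 in the other 8 muscles) and the highest sum of 6 hepatocyte markers (352). In adipose Igfbp1 was 1.31, 5.098, 0.0332 and 3.17 at 5 months and 3.12, 0, 0.0595, 0.422 and 0.119 at 20 months (log2 change -0.92, 95% interval -2.19 to 0.34, limma adjusted p = 0.240). Sample 36 had the highest older Igfbp1 (3.12) and the highest hepatocyte sum (236), but sample 38, with the next highest sum (141), had 0.0595, and mouse B, with the highest Igfbp1 (5.10), had a sum of 4.66. All 6 hepatocyte markers were above 0 in at least 1 muscle and 1 adipose sample of each age. The part of liver RNA in these values was not tested.

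Igfbp3, the main carrier of IGF in blood together with the acid-labile subunit, had no called change. In liver it was 46.97, 33.97, 13.6 and 16.6 at 5 months and 20.6, 29.9, 40.04, 26.5 and 31.5 at 20 months, with overlapping groups (log2 change 0.23, 95% interval -0.48 to 0.94, limma adjusted p = 0.635). In adipose it was 39.2, 62.7, 33.8 and 30.4 at 5 months and 43.4, 19.2, 23.8, 45.2 and 18.04 at 20 months, overlapping as well (log2 change -0.51, 95% interval -1.23 to 0.21, limma adjusted p = 0.249). In muscle it was 35.3, 60.5, 23.7 and 37.7 at 5 months and 18.2, 22.9, 26.1, 27.4 and 27.6 at 20 months. Of these, muscle came closest, with all 5 older samples under the mean of the young and 3 of them inside the young range (log2 change -0.60, 95% interval -1.08 to -0.13, limma adjusted p = 0.0718). The change passed without muscle mouse C (adjusted p = 0.0108) and with DESeq2 (0.0220).

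Igfbp5, a binding protein of connective tissue and muscle, was the 1 member called higher with age. In liver, where it was lowest, its values were 15.7, 5.82, 16.2 and 10.4 at 5 months and 42.7, 55.3, 28.2, 31.3 and 12.6 at 20 months. Sample 74, at 12.6, lay inside the young range and the other 4 older livers were above it, so that the mean went from 12.01 ± 4.89 (SD, n = 4) to 34.01 ± 16.02 (SD, n = 5) (log2 change 1.37, 95% interval 0.52 to 2.23, limma adjusted p = 0.0335). In adipose it was 143, 121, 215 and 148 at 5 months and 253, 145, 92.8, 209.7 and 125 at 20 months and in muscle 171, 217, 142 and 217 at 5 months and 173, 188, 188, 216 and 224 at 20 months, and neither change passed (limma adjusted p = 0.967 and 0.622). Without 5-month liver A, B or D or older liver 17, 18 or 19 the hepatic call was lost (adjusted p just over 0.05 to 0.0955), and it was lost without the filter (0.0645).

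The hepatic change of Igfbp5 exceeded that in adipose by 1.35 (95% interval 0.42 to 2.29, limma adjusted p = 0.0444), a call that did not hold when any of 17 of the 27 samples was left out (adjusted p 0.0502 to 0.109), without all 3 samples of mouse B (0.114) or without the filter (0.0734). Against muscle the difference was 1.27 (95% interval 0.34 to 2.21, limma adjusted p = 0.0528), and it passed with the mouse as a replicate block (adjusted p = 0.0448) and in 5 further settings. Beside this result, 2 of 5 tested fibroblast markers rose in liver, and the sum of the 6 listed was 335 to 467 at 5 months and 390.2 to 525 at 20 months. The sum of 6 mesothelial markers was 5.68 to 10.7 and 9.62 to 26.6 (1 of 6 rose). Their part in the change of Igfbp5 was not tested.

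In all, 5 differences of age change between tissues passed: 3 of 10 members for adipose against muscle (14.7% of 15572 genes), which were Igf1, Igf2 and Insr, 2 of 10 for liver against adipose (15.6%), which were Igf2 and Igfbp5, and 0 of 10 for liver against muscle (17.5%). In the last pair 1 member had an unadjusted limma p under 0.05, edgeR called 1 and DESeq2 called 2, and the fit with a replicate block called 1. The 3 pairs share samples and are not independent of each other. Igf2 was near the floor in liver, so that its difference for liver against adipose largely restates its decrease in adipose. The age change was thus called different by tissue for 4 members, and for the remainder a difference was not shown. With so few members these counts stand close to the background. Of the 4, only Igf2 kept its calls with each sample left out in turn.

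By an exact two-sided permutation test of each member on its own, 13 of the 30 combinations of member and tissue had p under 0.05, the smallest value 4 against 5 samples can give being 0.00794. They include Igfbp1 and Igfbp2 in muscle (exact p = 0.0476 each), which were too low for the limma test. The share of all genes that pass this exact test was not computed, so that the count has no background to be read against. After adjustment over the 30, none was under 0.05 (smallest 0.106). The age groups did not overlap for Igf2 and Insr in adipose (2 of 10 members, beside 17.4% of genes tested), Insr in liver (1 of 9, beside 19.1%) and Igf1r in muscle (1 of 8, beside 17.3%), and in each of these the older group was the lower, which held for 10.7% of all genes in liver, 9.1% in adipose and 8.64% in muscle.

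Between tissues, the question was where each member was expressed. At 5 months, 6 of 10 differed between liver and adipose (76.4% of genes tested did), 7 of 10 between liver and muscle (72.9%) and 3 of 10 between adipose and muscle (72.8%). At 20 months these counts were 9 (74.5%), 7 (77.2%) and 6 (76.0%). Igf1, Igfbp1 and Igfbp2 were higher in liver than in either other tissue at both ages, and Igf2, Igf1r and Igfbp5 were lower there, all past the threshold and with no change of sign under any scaling tried.

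Igf1 in young liver was 5.498 times its level in adipose and 33.5 times that in muscle, and adipose held 6.09 times the muscle level (log2 difference 2.55, 95% interval 1.94 to 3.15, limma adjusted p = 2.60e-08). Igfbp2 in young liver was 135 times its level in adipose. Igf1r in young liver was 9.8 times lower than in muscle (log2 difference -3.12, 95% interval -3.66 to -2.57, limma adjusted p = 6.08e-11), and Igfbp5 15.5 times lower. With the deposited scaling Irs1 was highest in muscle at both ages, 2.72 times liver and 2.25 times adipose at 5 months (log2 difference -1.33, 95% interval -1.86 to -0.79, limma adjusted p = 6.45e-05), and 4.84 times adipose at 20 months. Plain CPM multiplies values by 1.55 to 1.79 in young adipose and by 0.806 to 0.905 in young muscle. The Irs1 difference between these 2 tissues was therefore smaller in size under it, and whether it passed there is not given here.

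With the deposited scaling, some neighbours in the order of the 3 tissues did not differ past the threshold. At 5 months these were adipose and muscle for Igf2, Igf1r, Igfbp1 and Igfbp5, adipose and liver for Irs1, and both neighbouring pairs for Insr (from liver through muscle to adipose), Irs2 (from adipose through liver to muscle) and Igfbp3 (from adipose through muscle to liver). At 20 months they were adipose and muscle for Igfbp1 and Igfbp5, muscle and liver for Insr, and both neighbouring pairs for Irs2 (from adipose through muscle to liver) and Igfbp3 (from adipose through liver to muscle). All other neighbours differed. At 20 months but not at 5 months, adipose was called below muscle for Igf2 (log2 difference -1.32, 95% interval -1.82 to -0.82, limma adjusted p = 2.45e-05), Igf1r (log2 difference -0.57, 95% interval -1.06 to -0.082, limma adjusted p = 0.0324) and Insr (log2 difference -0.99, 95% interval -1.33 to -0.65, limma adjusted p = 6.96e-06). At 5 months the adipose mean was above that of muscle for Igf2 (18.6 against 16.4). It was already below for Igf1r (50.9 against 55.6) and Insr (203 against 221). For Igf1r the age change did not differ past the threshold between adipose and muscle (limma adjusted p = 0.446). Insr in older adipose was also below that in liver (log2 difference 0.66, 95% interval 0.32 to 1.0, limma adjusted p = 0.000956). With plain CPM the sign turned for Igf1r (0.27) and for Insr against liver (-0.26), and that of Igf2 and of Insr against muscle did not. Plain CPM multiplies values by 1.56 to 1.72 in older adipose and by 0.854 to 0.940 in older muscle. The differences of Igf2 and Insr against muscle were therefore smaller in size under it, and whether they passed there is not given here. The median gene moved from 0.17 to 0.84 for older adipose minus muscle under plain CPM. That scaling moved the median gene from 0.18 to 0.97 for young adipose minus muscle, where the signs of Igf1r, Insr and Igfbp5 turned as well. Within a tissue the age comparisons were less exposed, with a median of 0.21 in liver, 0.11 in muscle and -0.01 in adipose under plain CPM. The split of all calls went from 1269 higher and 1239 lower to 2706 and 328 in liver, from 1161 and 1290 to 2169 and 903 in muscle and from 1365 and 1309 to 1621 and 1016 in adipose. The calls of Insr, Irs2 and Igfbp5 in liver held under it, Insr at -0.39, which is further below the moved median than below 0.

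Read per kilobase, the order of members differed by tissue. In young liver it ran from Igfbp2 (739.9 ± 156, SD) through Igfbp1 (391 ± 332), Igf1 (45.6 ± 7.65) and Insr (24.97 ± 1.78) down to Igf1r (0.498 ± 0.199) and Igf2 (0.121 ± 0.0244). In young adipose and muscle Igfbp5 came first (26.1 ± 6.78 and 31.1 ± 6.1) and Insr next (21.7 ± 6.94 and 23.6 ± 2.06), an order that was the same at 20 months. Igfbp1 was last in both. The order of the top 2 was not tested.

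Ins1 and Ins2, the insulin genes, were listed at 0 in all 27 samples, so that no insulin message was detectable at these depths and neither the insulin peptide nor receptor phosphorylation was measured. The remaining genes of the pathway were taken from 5 lists that hold 86 genes, Ins1 and Ins2 included. Of these, 70 were tested in liver, of which 7 rose and 5 fell, 76 in adipose, of which 7 rose and 8 fell, and 76 in muscle, of which 5 rose and 22 fell. The 12, 15 and 27 calls correspond to 17.1%, 19.7% and 35.5% of the listed genes tested, beside 19.8%, 19.1% and 19.3% of all genes in liver, adipose and muscle. The median log2 change of a list lay between -0.24 and 0.55 in liver, -0.28 and 0.023 in adipose and -0.63 and -0.039 in muscle, beside the all-gene medians given above. Whether the calls of listed genes hold without mouse B was not examined.

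Among other ligands, carriers and binding proteins, Igfals, which encodes the acid-labile subunit that holds Igfbp3 complexes in blood, rose in adipose. Its adipose values were 0.415, 0.148, 1.29 and 2.39 at 5 months and 3.68, 14.9, 8.59, 16.3 and 11.9 at 20 months, with all 5 older samples above all 4 young ones, and went from 1.06 ± 1.01 to 11.1 ± 5.09 (log2 change 2.54 ± 0.43 (SE), limma adjusted p = 0.0118). Sample 39, with the highest Igfals (16.3), had a hepatocyte marker sum of 3.19. Among young adipose samples, mice C and D had the highest sums (59.03 and 49.7) and also the highest Igfals (1.29 and 2.39). The part of liver RNA in adipose Igfals was not tested. Igfals in liver did not pass, 71.9 to 94.4 (log2 0.43, adjusted p = 0.228). In adipose the protease gene Pappa2, whose product cleaves Igfbp3 and Igfbp5, and its inhibitor Stc1 both fell, 3.54 to 0.839 (log2 -1.32, adjusted p = 0.00793) and 16.7 to 3.096 (log2 -2.34, adjusted p = 0.0123). Igfbp7 and Htra1, a protease of binding proteins, rose in liver, 93.9 to 151 (log2 0.67, adjusted p = 0.0105) and 2.21 to 4.48 (log2 0.76, adjusted p = 0.0218), and Igfbp7 did not pass in adipose (0.304) or muscle (0.285). In muscle Igfbp4, Igfbp6 and the mRNA-binding protein gene Igf2bp2 fell, 87.5 to 55.6 (log2 -0.64, adjusted p = 0.0143), 72.6 to 50.2 (log2 -0.52, adjusted p = 0.0469) and 17.1 to 1.86 (log2 -2.52, adjusted p = 0.00421). Igf2r, the clearance receptor for Igf2, passed in no tissue (adjusted p = 0.225, 0.115 and 0.0540 in liver, adipose and muscle).

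Among adaptors and receptor regulators, 1 of 15 tested rose in liver (Socs1, 0.323 to 1.08 (log2 0.65, adjusted p = 0.0362)). In adipose 1 rose and 2 fell of 16, the largest being Grb10, an imprinted inhibitor of both receptors, 172 to 53.8 (log2 -1.82, adjusted p = 0.0234), beside Grb2, 54.9 to 89.8 (log2 0.67, adjusted p = 0.0299), and Trib3, 17.2 to 11.7 (log2 -0.54, adjusted p = 0.0479). In muscle 2 rose and 3 fell of 15, among them Socs3, a feedback inhibitor, 30.1 to 4.32 (log2 -1.97, adjusted p = 0.0286), the receptor inhibitor Grb14, which rose, 15.2 to 26.2 (log2 0.73, adjusted p = 0.00454), and Ptpn1, a phosphatase that acts on the insulin receptor, 52.02 to 33.4 (log2 -0.64, adjusted p = 0.0157). Of 28 PI3K, Akt and mTOR genes, 5 passed in liver, 3 in adipose and 5 in muscle. Pik3cd, the leukocyte-enriched catalytic subunit, rose in all 3 tissues (5.09 to 12.5 (log2 1.04, adjusted p = 0.0395) in liver, 17.4 to 38.8 (log2 1.12, adjusted p = 0.0176) in adipose and 9.33 to 15.01 (log2 0.63, adjusted p = 0.0125) in muscle), and in muscle this was beside lower macrophage markers (3 of 6 fell). Deptor and Pdpk1 fell in liver, 257 to 153 (log2 -0.75, adjusted p = 0.00785) and 78.7 to 47.2 (log2 -0.73, adjusted p = 0.0133), Pik3r3 and Rps6kb1 in adipose, 33.3 to 14.6 (log2 -1.11, adjusted p = 0.0254) and 48.1 to 38.2 (log2 -0.33, adjusted p = 0.0454), and Eif4ebp1 and Pik3ca in muscle, 162 to 93.8 (log2 -0.79, adjusted p = 0.0248) and 161 to 104 (log2 -0.58, adjusted p = 0.0486).

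FoxO factors and insulin-responsive targets formed the list with the most calls: in muscle 9 of 17 tested fell and 1 rose. Foxo1, the FoxO factor that Akt restrains, was 212, 246, 95.5 and 96.6 at 5 months and 54.3, 51.1, 54.3, 37.3 and 36.4 at 20 months in muscle, with mice A and B highest and no overlap of the groups (163 to 46.7 (log2 -1.67, adjusted p = 0.00394)). Trim63, a ubiquitin ligase of muscle atrophy, and Sesn1, a stress-induced inhibitor of mTORC1, fell with it, 3436 to 1035 (log2 -1.78, adjusted p = 0.00245) and 232 to 68.5 (log2 -1.73, adjusted p = 0.000983). In liver Srebf1, a lipogenic factor that insulin induces, and Hk2 rose, 30.5 to 75.8 (log2 1.26, adjusted p = 0.00737) and 1.21 to 4.803 (log2 1.27, adjusted p = 0.0258), and Pck1, the gluconeogenic gene that insulin represses, fell, 6066 to 3305 (log2 -0.96, adjusted p = 0.0497). In adipose 3 of 15 rose, Srebf1, the glucose transporter gene Slc2a4 and Sesn3, 69.1 to 112 (log2 0.68, adjusted p = 0.0285), 23.2 to 45.7 (log2 0.98, adjusted p = 0.0420) and 2.46 to 7.303 (log2 1.34, adjusted p = 0.0179). Foxo1 did not pass in liver (68.04 to 42.2 (log2 -0.62, adjusted p = 0.0632)) or adipose (71.7 to 50.7 (log2 -0.41, adjusted p = 0.245)).

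**Figure D5:**
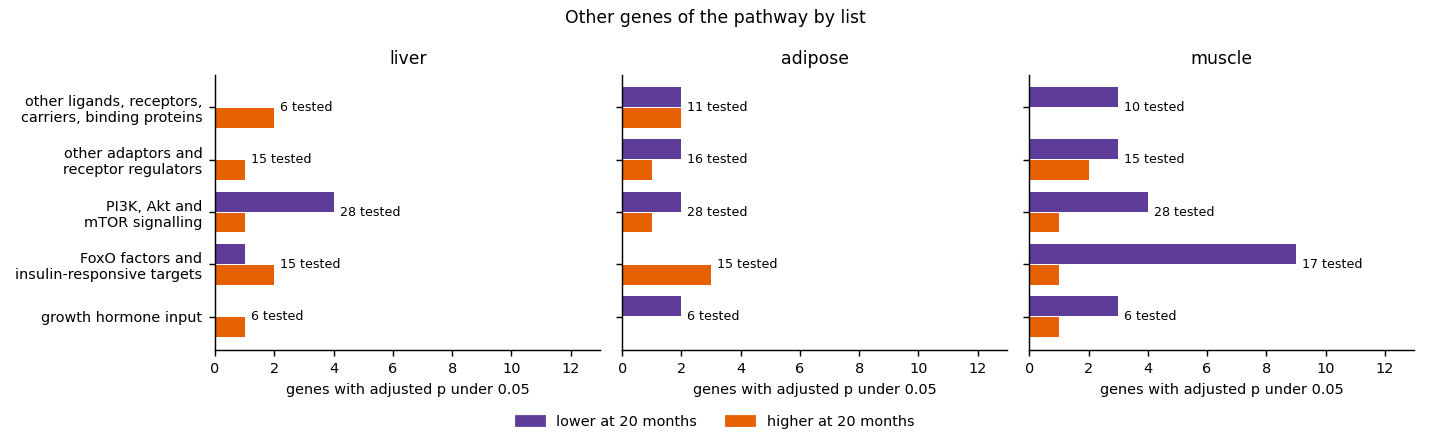
Number of genes with an adjusted p under 0.05 (x axis) that were lower (purple) or higher (orange) at 20 months in each of 5 lists of other genes of the pathway, by tissue, with the number of genes tested beside each pair of bars. Muscle has 9 lower genes among FoxO factors and insulin-responsive targets, the longest bar.

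In the list of growth hormone input, Ghr, the growth hormone receptor, rose in liver (288 to 403 (log2 0.50, adjusted p = 0.0331)) and in muscle (127 to 182 (log2 0.52, adjusted p = 0.00389)). The feedback genes Socs2 and Cish, which growth hormone induces, fell in muscle (16.8 to 9.31 (log2 -0.76, adjusted p = 0.00886) and 3.53 to 1.096 (log2 -1.12, adjusted p = 0.00728)) and in adipose (15.5 to 7.32 (log2 -0.99, adjusted p = 0.0193) and 7.13 to 3.96 (log2 -0.71, adjusted p = 0.0486)). In muscle these values stand beside the lower Igf1. Ghr in adipose ranged from 119 to 646 among the 4 young mice, mouse B being lowest, and did not pass (419 to 404 (log2 0.20, adjusted p = 0.757)). In muscle, 5 of 6 fibroblast markers also fell, and their sum was 907 to 1291 at 5 months and 481 to 841 at 20 months. The part of such cells in the muscle results was not tested.

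The genes whose pattern over the 27 samples was most like that of a member, by Pearson's r of log2(value + 1) among 15571 other genes, are given as a description. They were Slc25a5, Adss and Pnp for Igf1 (r = 0.99, 0.98 and 0.98), Myh11, Itgb4 and Shroom4 for Igf2 (0.98, 0.97 and 0.97), Txnip, Myh11 and Tead1 for Igf1r (0.98, 0.98 and 0.97) and Ibtk, Atg2b and Fitm2 for Insr (0.91, 0.91 and 0.89). For Irs1 they were Ppp6r3, Pdk2 and Rprd1b (0.96, 0.96 and 0.95), and for Irs2 Tmem131, Picalm and Cd163 (0.86, 0.84 and 0.83). Igfbp1 was most like Baiap2l1, Mfsd2a and G6pc (0.98 each), Igfbp2 like Ttpa, Scp2 and Glyctk (0.99 each), Igfbp3 like Sned1, Smad1 and Mmp17 (0.71, 0.71 and 0.68) and Igfbp5 like Igfbp6, Sema3c and Bcam (0.96, 0.95 and 0.95). All points of a comparison share library, depth and scaling.

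With the mean of each tissue and age group taken off, so that only the spread between mice remained, the nearest genes were Dera, Ssna1 and Pigk for Igf1 (r = 0.84, 0.82 and 0.82), Ephb4, Caskin2 and Als2cl for Igf2 (0.90, 0.88 and 0.87), Jam3, Adgrg2 and Abi3bp for Igf1r (0.88, 0.86 and 0.85) and Clmn, Txlng and Gm5460 for Insr (0.88, 0.87 and 0.86). They were Nbr1, Dgat1 and Sf1 for Irs1 (0.86, 0.86 and 0.85), Enc1, Wasl and Btg1 for Irs2 (0.85, 0.84 and 0.84), and Marveld3, Gm38643 and Baiap2l1 for Igfbp1 (0.89, 0.86 and 0.85). For Igfbp2 they were Agxt, Cyp4a12a and Slc17a2 (0.84, 0.84 and 0.83), for Igfbp3 Clca3a1, Smad1 and Adgrg3 (0.79, 0.75 and 0.74) and for Igfbp5 Aebp1, Nectin1 and Kremen1 (0.76, 0.75 and 0.75). Among the members themselves Insr and Irs1 were the closest pair (0.76), followed by Igf2 and Igf1r (0.69) and Igf1r and Igfbp3 (0.68), and Igf1 was opposed to Igf1r (-0.60) and Igf2 (-0.59).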

How the data were processed

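RNA was measured in liver, omental adipose tissue and skeletal muscle by poly-A selected, strand-specific sequencing. Per the study's methods, the authors mapped and counted reads in CLC Genomics Workbench; per the labels' processing notes the build was GRCm38.p6 (mm10), and the annotation was not given in the sources used here. The deposited values are a signal, CPM that the authors also multiplied by a factor per sample, so that a sample sums to between 559419 and 1395315. All values were whole multiples of 1 read (100% within 0.01 reads), from which the reads on genes were recovered (14384695 to 25673919 per sample). The depth limits the lowest genes, since 3 reads were worth 0.0703 to 0.242.

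Values were tested as log2(value + 1) with limma 3.58.1 (R 4.3.3, mean-variance trend) within each tissue, for genes that reached a value of 1 in 4 or more of its samples, and in 1 fit of the 27 samples for differences between tissues, with adjustment by Benjamini and Hochberg and a threshold of 0.05. Log2 changes and differences are on this scale, which understates changes of low genes, and values given as folds or times are ratios of group means of normalised values. Recovered reads were tested with edgeR 4.0.16 (quasi-likelihood) and DESeq2 1.42.0 as alternatives (edgeR called 2578 genes with age in liver, 2692 in adipose and 2453 in muscle), beside other scalings, filters and pseudocounts, and the fits were tested on simulated data.

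The younger mice gave all 3 tissues, per the labels. Deviations from the group mean correlated by 0.136 on average (-0.0169 to 0.294, 12 pairs of tissues) within a mouse and by -0.0450 between mice (36 pairs), and the mouse was used as a replicate block in an alternative fit (consensus correlation 0.101). The labels tie no 20-month samples of different tissues to 1 mouse, so that each counted as its own. No 2 samples of a group were identical. The age label of the older samples (20 months) was used, although their titles carry the code X18. The study's PCR table lists liver, adipose and muscle samples at 18 months whose numbers end in the same digits as the older samples here. Whether they are the same samples was not stated, so that the age of the older group may have been 18 months. The members and lists were chosen with earlier results of these data known. A gene of the adaptor list is not reported here, and the counts of that list are given without it. Named were all members, in each list the 3 called genes with the largest change per tissue, the genes of a short list of carriers and receptors whatever their result, and for each member the 3 genes most like it. Values per kilobase were divided by the union of GENCODE exons.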

Additional observations from a re-analysis of the deposited data

Results flagged for a closer look

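Of 60 combinations of member and group examined, 5 held 1 sample that stood apart from the rest by the gap to its nearest neighbour relative to the range. The cutoff is one that chance passes in about 1 in 20 groups where values are normally distributed. It was applied to untransformed values, for which that rate was not checked. In liver at 20 months, sample 16 was apart for Igfbp1 (905, against 25.3 to 137 in the other 4) and for Irs2 (83.7, against 13.03 to 29.02). In liver at 5 months, mouse B was apart for Insr (259, against 225 to 226 in the other 3). In adipose at 20 months, sample 36 was apart for Igfbp1 (3.12, against 0 to 0.422). In muscle at 5 months, mouse C was apart for Igfbp2 (5.48, against 0.154 to 0.887).

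The age change differed between tissues in 5 tests of the difference itself (limma, 27 samples). Igf2 differed by 1.74 for liver minus adipose (adjusted p = 0.00263) and by -1.44 for adipose minus muscle (adjusted p = 0.0103). Its liver values were near the floor. Igfbp5 differed by 1.35 for liver minus adipose (adjusted p = 0.0444). Igf1 differed by 1.27 and Insr by -0.83 for adipose minus muscle (adjusted p = 0.0315 and 0.0278).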

How the results depend on the processing

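Insr in liver and the differences of Igf2 between adipose and the other tissues passed under every alternative run, although Igf2 was near the floor in liver. Counts of members called moved as follows, with the deposited scaling and limma giving 3, 3 and 2 of the members for age in liver, adipose and muscle and 3, 2 and 0 for differences of age change (adipose minus muscle, liver minus adipose, liver minus muscle). DESeq2 gave 5 for age in adipose, 5 for adipose minus muscle and 2 for liver minus muscle. Omission of the filter gave 1 in liver, 1 in muscle and 1 for liver minus adipose. The fit of all 27 samples gave 1 in muscle. Without the 3 samples of mouse B, an alternative chosen after seeing the data, the count was 0 in adipose, 1 in liver and 1 for liver minus adipose. For liver minus muscle, edgeR, a mean value of at least 5, plain CPM, the scaling without the 20 most abundant genes and the replicate block each gave 1. The replicate block changed 2 calls among the differences of age change, Igfbp5 for liver minus muscle (adjusted p = 0.0448) and Irs1 for liver minus adipose (adjusted p = 0.0499), no other call there and no call of a difference between tissues at either age. Between 5-month tissues, plain CPM gave 8 (adipose minus muscle) and 10 (liver minus adipose) in place of 3 and 6, and the scaling without the 20 most abundant genes gave 6 and 10. With 1 sample left out, the counts were 1 to 4 in liver, 0 to 4 in adipose and 0 to 4 in muscle for age. They were 1 to 4, 1 to 4 and 0 to 1 for the 3 differences of age change, 3 to 4, 6 to 7 and 7 to 8 between tissues at 5 months (adipose minus muscle, liver minus adipose, liver minus muscle) and 5 to 6, 8 to 9 and 7 to 8 at 20 months. The all-gene calls with 1 sample left out ranged from 959 to 3557 in liver, 397 to 3748 in adipose and 1158 to 3796 in muscle. Plain CPM moved the split of all calls (first tissue higher and lower) from 6531 and 4808 to 11075 and 2159 for adipose minus muscle and from 5687 and 6208 to 2208 and 11407 for liver minus adipose at 5 months, from 6553 and 5276 to 10322 and 2681 and from 5564 and 6041 to 2566 and 10684 at 20 months, and for differences of age change from 1298 and 987 to 1208 and 1425 (adipose minus muscle), from 1338 and 1086 to 2226 and 578 (liver minus adipose) and from 1456 and 1276 to 1514 and 575 (liver minus muscle). The causes of these moves were not tested.

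Directions turned only for differences that were not called or that lie between tissues. Plain CPM and the scaling without the 20 most abundant genes turned adipose minus muscle for Igf1r (0.82 and 0.61 at 5 months, 0.27 and 0.034 at 20 months), Igfbp5 (0.72 and 0.50, 0.52 and 0.28) and Insr (0.81 and 0.60 at 5 months). They turned liver minus adipose for Insr (-0.93 and -0.81 at 5 months, -0.26 and -0.15 at 20 months) and Igfbp3 (-0.84 and -0.72 at 20 months, where edgeR gave -0.011 and DESeq2 -0.0039), liver minus muscle for Insr at 5 months (-0.11 and -0.21) and the age change of Irs1 in liver (0.14 and 0.12). Plain CPM alone turned Irs1 for liver minus adipose at 20 months (-0.026), and the other scaling alone turned Igfbp5 with age in adipose (-0.015). Without mouse B, Igf1 (-0.061) and Igfbp5 (-0.094) with age in adipose and Irs1 for liver minus adipose at 5 months (0.13) turned. With 1 sample left out, uncalled changes crossed 0 for age in Igf1 in adipose (-0.061 to 0.40), Igfbp3 in liver (-0.040 to 0.53), Igfbp5 in adipose (-0.16 to 0.20) and muscle (-0.024 to 0.18) and Irs1 in liver (-0.15 to 0.032), and between tissues for Igf1r (-0.34 to 0.019) and Igfbp3 (-0.12 to 0.33) in adipose minus muscle at 5 months, Irs1 in liver minus adipose at 5 months (-0.35 to 0.17) and Igfbp3 in liver minus adipose at 20 months (-0.084 to 0.24).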

Other observations

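The 4 binding protein genes stood in neighbouring pairs with no annotated gene between them. Igfbp1 and Igfbp3 are 3539 bases apart on chromosome 11 and Igfbp2 and Igfbp5 are 5590 bases apart on chromosome 1, each pair with the gene ends facing each other. The members of a pair did not run together: with the mean of each tissue and age group taken off, Pearson's r over 27 samples was 0.14 for Igfbp1 and Igfbp3 and 0.13 for Igfbp2 and Igfbp5, beside 0.55 for Igfbp1 and Igfbp2, which lie on different chromosomes. Samples share library and scaling across these genes.

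B cell markers were the 1 list of cell type genes of which all members rose in adipose and in liver. Their summed value in adipose was 2.96 to 15.1 at 5 months and 10.98 to 150.0 at 20 months (4 of 4 rose). In muscle none of the 4 reached the filter, and the sum was 0.231 to 3.902 and 0.570 to 1.98.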
